A study of Homo sapiens with 8 samples.

Results

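The mature miRNAs of 2 related clusters, MIR192 with MIR194-2 and MIR215 with MIR194-1, were compared across 4 human cancer cell lines by small RNA-seq. They were chosen by name from the table of mature miRNAs and comprise hsa-miR-192-5p, hsa-miR-192-3p, hsa-miR-194-5p, hsa-miR-194-3p, hsa-miR-215-5p and hsa-miR-215-3p, written below without the species prefix. These 6 of 2588 names fill 7 of 2813 table entries, because miR-194-5p is listed once on chromosome 1 and once on chromosome 11. The lines were ES-2, derived from ovarian cancer, MV-3, derived from melanoma, Huh-7, derived from hepatocellular carcinoma, and A-549, derived from lung adenocarcinoma. All were parental cells with no agent named, grown in DMEM with 10% fetal bovine serum and harvested 48 h after seeding, with 2 libraries per line and 8 in all. A cell line is a single culture of tumor-derived cells, so a difference between lines belongs to these cultures and not to the tissues or tumor types named.

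The miRNAs of both clusters are best known from liver, kidney and gut epithelium. In hepatocytes and enterocytes their transcription depends on hepatocyte nuclear factors, and p53 has also been described as an activator of the clusters. A miRNA recognises target mRNAs mainly through its seed, bases 2 to 8 counted from the 5′ end, so miRNAs that share a seed share many predicted targets. Each hairpin precursor can give a miRNA from its 5′ arm (5p) and one from its 3′ arm (3p), and the arm that is loaded into Argonaute accumulates while the other is mostly degraded.

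The mature sequences are shown because they decide which members can be told apart. They were taken from RefSeq on GRCh38.p14, where all 6 names were found, and are written 5′ to 3′ with the seed in capitals.
miR-192-5p: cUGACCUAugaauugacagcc
miR-215-5p: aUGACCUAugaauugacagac
miR-194-5p: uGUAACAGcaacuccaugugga
miR-192-3p: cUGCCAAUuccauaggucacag
miR-215-3p: uCUGUCAUuucuuuaggccaaua
miR-194-3p: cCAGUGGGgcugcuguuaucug
miR-192-5p and miR-215-5p have the same seed and share 19 of 21 bases. Counted from the 5′ end of miR-192-5p, the substitutions to miR-215-5p are C1A and C20A. A read that lacks the ends of the miRNA cannot be assigned to either of them. The seed of miR-194-5p is unrelated. No other miRNA of the table carries the seed of miR-192-5p and miR-215-5p or that of miR-194-5p. The 3p members each have a seed of their own.

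The 4 hairpins form a duplicated pair. Their sequences are shown with the annotated mature arms in capitals, because the table entries are of mature arms and not of flanks.
MIR192: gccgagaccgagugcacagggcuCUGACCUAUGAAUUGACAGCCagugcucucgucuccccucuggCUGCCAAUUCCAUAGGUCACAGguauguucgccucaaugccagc
MIR194-2: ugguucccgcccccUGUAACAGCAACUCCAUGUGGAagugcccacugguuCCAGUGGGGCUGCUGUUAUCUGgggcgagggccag
MIR215: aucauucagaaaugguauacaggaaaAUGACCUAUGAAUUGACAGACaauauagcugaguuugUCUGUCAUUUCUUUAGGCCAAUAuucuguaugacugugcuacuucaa
MIR194-1: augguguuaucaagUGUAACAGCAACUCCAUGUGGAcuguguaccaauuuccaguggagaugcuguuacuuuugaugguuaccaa
MIR192 (chr11:64891137-64891246, minus strand) and MIR194-2 (chr11:64891355-64891439, minus strand) are separated by 108 bases and lie within the lncRNA gene MIR194-2HG on the same strand. In GENCODE, MIR192 overlaps an exon of 1 of the 4 annotated transcripts of this gene and MIR194-2 an exon of 2. MIR215 (chr1:220117853-220117962, minus strand) and MIR194-1 (chr1:220118157-220118241, minus strand) lie closely spaced in an intron of IARS2, an isoleucyl-tRNA synthetase gene that is transcribed from the opposite strand. Aligned over their whole length, arms included, 55.2% of positions were identical between MIR192 and MIR215 and 65.9% between MIR194-1 and MIR194-2. Of the 4 hairpins, MIR194-1 alone has no 3p miRNA annotated in RefSeq.

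Libraries held 1173902 to 2670030 reads on mature miRNAs. Values are given as deposited, in counts per 1000000 reads after scaling by the trimmed mean of M values (TMM), and are called normalised CPM. The scaling factors were 1.63 and 1.70 for the Huh-7 libraries but 0.608 and 0.593 for those of A-549, so comparisons of these lines move with the scaling more than any other. Reads recovered from the table and scaled to the library total alone are called library CPM. Of the markers of each labelled origin, miR-122-5p reached 83721 ± 3531 normalised CPM in Huh-7 (SD, n = 2), and no other line exceeded 32.8. The melanocyte and melanoma markers miR-211-5p, miR-509-3p and miR-514a-3p had 0 reads in both MV-3 libraries. The epithelial marker miR-200c-3p reached 120 ± 12.6 in Huh-7, 79.9 ± 33.8 in A-549, 44.5 ± 1.89 in ES-2 and 18.6 ± 8.56 in MV-3. miR-141-3p did not exceed a mean of 5.25 in any line.

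miR-192-5p and miR-194-5p were abundant in Huh-7 and A-549 and scarce in ES-2 and MV-3. In A-549 miR-215-5p had 62 and 60 reads, or 38.2 and 49.1 normalised CPM, below miR-192-5p in ES-2. Summed, all 6 members took 1.73% ± 0.119 of miRNA reads in Huh-7 (SD, n = 2) and 0.475% ± 0.0187 in A-549. In ES-2 they took 0.0133% ± 0.000512 and in MV-3 0.0179% ± 0.000219. The 5p members of both clusters held most of these reads in each line, and miR-215-3p was found in Huh-7 alone. miR-194-3p held 39 of 526 member reads in ES-2 and 32 of 487 in MV-3. It held 1116 of 67795 in Huh-7 and 462 of 22530 in A-549. The libraries of Huh-7 and A-549 lay above those of ES-2 and MV-3 for each of the 5p members and for miR-194-3p. The share of all miRNAs that separated these lines in the same way was not counted, so this is no trait particular to the members.

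miR-192-5p, which is among the abundant miRNAs of normal liver and intestine, had 5385 and 4676 normalised CPM in the Huh-7 libraries and 4724 and 4357 in those of A-549. In ES-2 it had 75.7 and 76.5, and in MV-3 88.1 and 67.5. The Huh-7 and A-549 values interleaved, and all 4 were far above the other libraries. By reads it ranked 19 and 20 among all miRNA names in Huh-7, 29 and 32 in A-549, and between 159 and 173 in ES-2 and MV-3. Huh-7 exceeded ES-2 by a log2 fold change of 6.02 (SE 0.14, limma's adjusted p = 1.95e-07) and MV-3 by 6.01 (adjusted p = 2.07e-07). A-549 exceeded ES-2 by 5.88 (limma's adjusted p = 8.61e-07) and MV-3 by 5.86 (adjusted p = 7.32e-07).

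miR-194-5p, which is transcribed together with miR-192 or miR-215 and whose 2 table entries were summed, had 5167 and 4489 normalised CPM in Huh-7 and 3094 and 3201 in A-549. It had 72.9 and 61.1 in ES-2 and 62.9 and 65.3 in MV-3. Here the Huh-7 libraries lay above both A-549 libraries, which again lay far above the rest. The log2 fold change was 6.15 for Huh-7 against ES-2 (SE 0.11, limma's adjusted p = 7.43e-08) and 5.54 for A-549 against ES-2 (adjusted p = 5.69e-07). Against MV-3 it was 6.21 for Huh-7 and 5.60 for A-549.

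miR-215-5p, the paralog of miR-192-5p, had 380 and 300 normalised CPM in Huh-7 and 38.2 and 49.1 in A-549. In ES-2 it had 0 and 5 reads and in MV-3 2 and 7 reads, which is 2.57 normalised CPM or less in ES-2 and 3.84 or less in MV-3. It was the member with the widest separation of Huh-7 from A-549 among those found in both, and the groups of libraries of these lines did not overlap. The log2 fold change of Huh-7 was 7.49 against ES-2 (SE 0.67, limma's adjusted p = 0.000104) and 6.61 against MV-3 (adjusted p = 0.000207). That of A-549 was 4.55 against ES-2 (limma's adjusted p = 0.00144) and 3.68 against MV-3 (adjusted p = 0.00406). These sizes rest on few reads in the lower line. With pseudocounts of 10 and 0.1 Huh-7 against ES-2 gave 4.95 and 9.35. Without ES-2 replicates 1 and 2 it gave 6.57 and 8.40, and the value of A-549 was then 3.63 and 5.47. With a pseudocount of 0.1 the calls of A-549 were lost, at limma's adjusted p = 0.0165 against ES-2 and 0.0724 against MV-3. They were lost against both lines without replicate 1 or 2 of A-549 (adjusted p = 0.0154 and 0.0201 against ES-2, 0.0302 and 0.0408 against MV-3) or of Huh-7 (0.0105 and 0.0108, 0.0208 and 0.0213), and against MV-3 without its own replicates (0.0327 and 0.0118).

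The 3p members followed at lower levels. miR-194-3p, from the MIR194-2 hairpin, had 160 and 187 normalised CPM in Huh-7, 159 and 167 in A-549, 9.72 and 12.8 in ES-2 and 4.44 and 14.3 in MV-3. The ranges of Huh-7 and A-549 overlapped, and both lay above ES-2 and MV-3. The log2 fold changes against ES-2 were 3.84 for Huh-7 (SE 0.48, limma's adjusted p = 0.00053) and 3.75 for A-549 (adjusted p = 0.00075). The first call was lost without Huh-7 replicate 1 (adjusted p = 0.0112) or 2 (0.0127), and the second without ES-2 replicate 1 (0.0123) or A-549 replicate 1 (0.0123) or 2 (0.0135). Against MV-3 the values were 4.25 and 4.17, with adjusted p = 0.00034 and 0.000484, and the A-549 call was lost by a narrow margin without A-549 replicate 2 (0.01004). They were 3.51 and 3.42 without MV-3 replicate 1, and 5.00 and 4.91 without MV-3 replicate 2. The other 3p members were rarer. In Huh-7 miR-215-3p stood at 20.8 and 11.3 normalised CPM, from 74 and 33 reads, and it had 0 reads in the remaining 6 libraries. For Huh-7 this was at least 8.86-fold higher than ES-2, at least 8.30-fold higher than MV-3 and at least 7.47-fold higher than A-549. These bounds were computed against 3 reads per library in the lower line, and were 6.22, 5.83 and 5.24 without Huh-7 replicate 1. The Huh-7 libraries held 11 and 23 reads of miR-192-3p, those of A-549 1 and 2, and the remaining 4 held 0. It did not pass the filter on low counts and was not tested. Its Huh-7 mean, set against 3 reads per library, was at least 3.02-fold higher than ES-2 and at least 2.83-fold higher than MV-3, and these bounds were 1.71 and 1.60 without Huh-7 replicate 2. With 3 reads in all in A-549, no fold is given for that line.

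**Figure D1:**
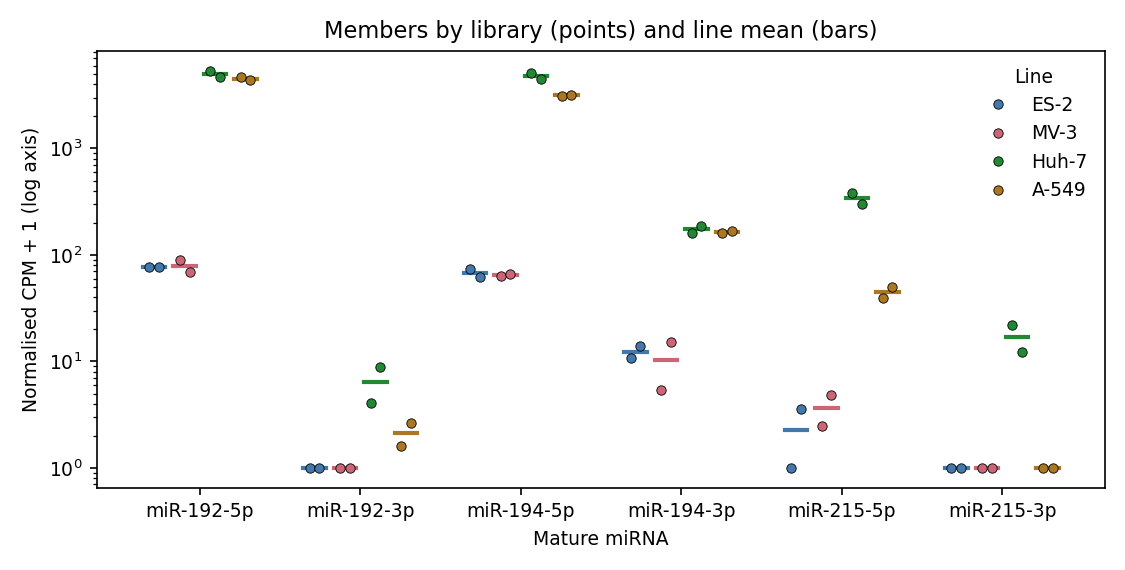
Normalised CPM + 1 (log axis) of the 6 members, with a point per library and a bar at the mean of each line. For miR-192-5p, miR-194-5p, miR-194-3p and miR-215-5p all Huh-7 and A-549 points lie above all ES-2 and MV-3 points, and a point at the lowest level stands for 0 reads.

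Of the 6 members, 5 passed the filter on low counts and were tested among 528 miRNAs. One of these, miR-215-3p, passed through its Huh-7 reads alone, and its calls rest on lines at 0 reads that show no spread. DESeq2 did not call it, at adjusted p of 0.0761 to 0.0887. Against ES-2, 5 of 5 were called higher in Huh-7 at an adjusted p below 0.01, where 27.7% of all miRNAs tested were called higher in that line. Against MV-3, 5 of 5 were called higher in Huh-7, beside 26.9% of all miRNAs. A-549 exceeded ES-2 in 4 of 5, beside 23.7%, and MV-3 in 4 of 5, beside 24.1%. The directions over all miRNAs moved with the scaling. With TMM factors 146 miRNAs were higher and 114 lower in Huh-7 than ES-2, 142 and 106 in Huh-7 than MV-3, 125 and 93 in A-549 than ES-2, 127 and 82 in A-549 than MV-3, and 61 and 75 in MV-3 than ES-2. With library size only these became 246 and 87, 205 and 93, 109 and 138, 79 and 161, and 82 and 56. The exception in A-549 was miR-215-3p, with 0 reads in the libraries compared. By edgeR's quasi-likelihood test, applied to the recovered reads, the numbers of members called in each pair were the same. Over all miRNAs edgeR called 49.2% for Huh-7 against ES-2, 45.6% for Huh-7 against MV-3, 38.6% for A-549 against ES-2, 40.3% for A-549 against MV-3 and 53.4% for A-549 against Huh-7. The median log2 fold change over all miRNAs tested was 0.34 for Huh-7 against ES-2 and 0.0031 for A-549 against ES-2. In the joint comparison of the 4 lines each tested member was called, with the highest limma adjusted p, 0.000284, for miR-194-3p, where 68.2% of all miRNAs were called (70.3% by edgeR).

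Within the fold changes of Huh-7 against ES-2, miR-215-5p ranked 13 of 528 from the highest, miR-194-5p 18, miR-192-5p 20 and miR-194-3p 56. No rank is given for miR-215-3p, with 0 reads in ES-2, because its fold change depends on the pseudocount. For A-549 against ES-2, miR-192-5p ranked 37, miR-194-5p 48, miR-215-5p 64 and miR-194-3p 81. These comparisons share the ES-2 libraries, so their values are set side by side and not correlated.

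Between MV-3 and ES-2, the lines with little of either cluster, 0 of 5 tested members were called by limma and 0 by edgeR, beside 25.8% and 26.1% of all miRNAs, and 0 had an unadjusted limma p under 0.05. The log2 fold change was 0.019 for miR-192-5p, with a 95% interval of -0.32 to 0.36. For miR-194-5p it was -0.057 (-0.34 to 0.22), for miR-194-3p -0.42 (-1.58 to 0.75) and for miR-215-5p 0.88 (-0.75 to 2.50). The libraries of MV-3 and ES-2 overlapped for each of these 4 members. The intervals of both abundant 5p members lie within 1 log2 unit of 0, whereas those of miR-194-3p and miR-215-5p reach beyond it. At 85 to 149 reads per library, miR-192-5p and miR-194-5p were still well above the 3-read limit of detection in both lines.

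When A-549 was set against Huh-7, miR-215-5p and miR-194-5p were called lower, and miR-192-5p and miR-194-3p were not called. Whether members differed from each other in this was not tested. Of 5 members tested, 3 were called lower in A-549, beside 23.7% of all miRNAs called lower in that line, and 0 were called higher by limma or edgeR or at an unadjusted p under 0.05, beside 28.6% of all miRNAs called higher by limma. Over all miRNAs 151 were higher and 125 lower in A-549, which became 110 and 264 with library size only. The third of the called members is miR-215-3p, which has 0 reads in A-549 and was not called by DESeq2 (adjusted p = 0.0887). Its log2 fold change of -4.03 depended on the pseudocount, at -1.36 with 10 and -7.27 with 0.1. The difference was widest for miR-215-5p among members found in both lines, at -2.93 on the log2 scale (SE 0.67, limma's adjusted p = 0.00835), and the ratio of mean normalised CPM, Huh-7 over A-549, was 7.79. miR-194-5p had a value of -0.61 (SE 0.11, limma's adjusted p = 0.0034), a ratio of 1.53, and miR-215-3p was listed at 0 in A-549. miR-192-5p was not called, with a log2 fold change of -0.15 and a 95% interval of -0.49 to 0.20, nor was miR-194-3p, with -0.087 (-1.25 to 1.08). The call of miR-215-5p was lost without any single library of Huh-7, A-549 or MV-3, with adjusted p values of 0.0772 and 0.0552 without Huh-7 replicates 1 and 2, 0.0604 and 0.0429 without A-549 replicates 1 and 2, and 0.0144 and 0.013 without MV-3 replicates 1 and 2. That of miR-194-5p was lost without Huh-7 replicate 1 (adjusted p = 0.0292), A-549 replicate 1 (0.0318) or 2 (0.0237), or MV-3 replicate 1 (0.0105). RLE factors and no filter on low counts ended both calls (0.0108 and 0.0137 for miR-215-5p, 0.0148 and 0.011 for miR-194-5p). A pseudocount of 0.1 ended that of miR-215-5p (0.143), and taking the highest entry of a name in place of the sum that of miR-194-5p (0.0162). edgeR called both, at adjusted p = 0.00017 and 0.00079.

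The size of these differences, and the call of miR-192-5p, depended on the scaling. By library CPM, miR-192-5p was 3.07-fold higher in Huh-7 than in A-549, with 8383 ± 587 against 2730 ± 205 (SD, n = 2), and its log2 fold change of -1.62 was called (limma's adjusted p = 5.43e-05). miR-194-5p was then 4.25-fold and miR-215-5p 21.6-fold higher in Huh-7. Dropping the TMM factors moved the median of all miRNAs by -1.33 on the log2 scale in this pair. Relative to that shift the change of miR-192-5p was small, and miR-215-5p was lower in A-549 under either scaling. With RLE factors or DESeq2 the log2 fold change of miR-192-5p was 0.085 or 0.090, the opposite sign, without a call.

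**Figure D2:**
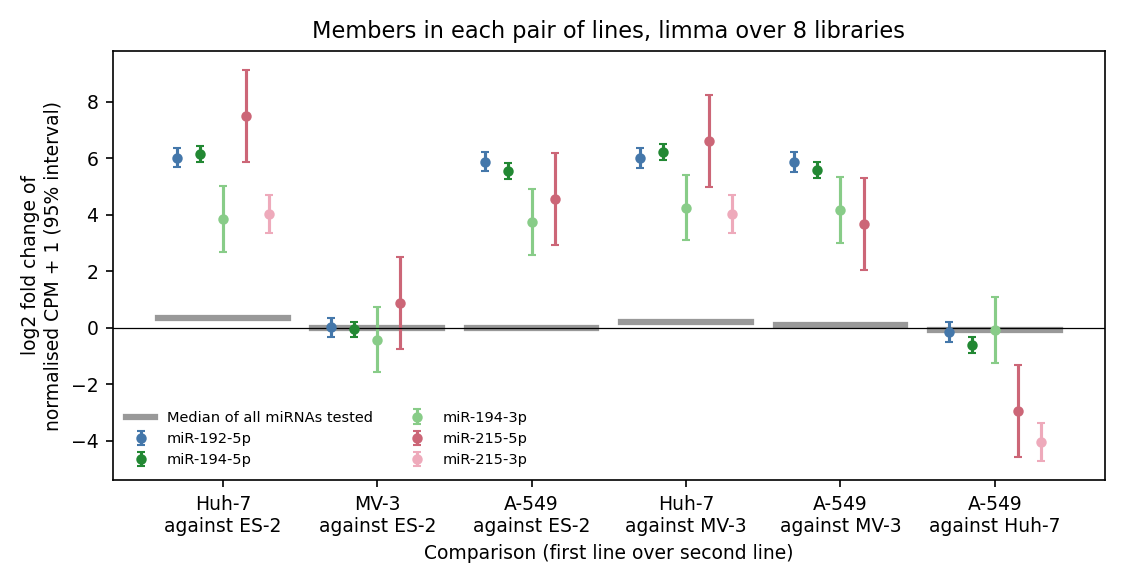
log2 fold changes of normalised CPM + 1 for the tested members in the 6 pairs of lines (first line over second), with 95% intervals from limma and a grey bar at the median of all miRNAs tested. Members lie between 3.68 and 7.49 where Huh-7 or A-549 is set against ES-2 or MV-3, between -0.42 and 0.88 for MV-3 against ES-2, and for A-549 against Huh-7 the miR-215 arms lie lowest. miR-215-3p is drawn for pairs with Huh-7 only.

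Ratios between members within a library are free of the scaling between libraries. Of the reads on the seed-sharing pair miR-192-5p and miR-215-5p, miR-215-5p took 6.59% (95% exact binomial interval 6.25 to 6.94) and 6.03% (5.65 to 6.43) in the Huh-7 libraries. In A-549 it took 0.801% (0.615 to 1.03) and 1.11% (0.851 to 1.43). The chromosome 11 paralog thus held most reads of this pair in each line, and the share of miR-215-5p was higher in both Huh-7 libraries than in both A-549 libraries. In ES-2 it took 0%, with 0 of 109 reads, and 3.25% (1.06 to 7.41), and in MV-3 1.65% (0.201 to 5.84) and 5.38% (2.19 to 10.8). The 0 of 109 allows a share of up to 2.75% at 3 counts and up to 3.33% by the exact interval. The shares of ES-2 and MV-3 rest on 109 to 154 reads per library. ES-2 replicate 1 and MV-3 replicate 1 lay below the Huh-7 shares beyond their intervals, with MV-3 replicate 1 doing so against Huh-7 replicate 1 only, whereas the second library of each line was not separable from Huh-7 at this depth. Such intervals cover counting error only, and an exact permutation test of 2 against 2 libraries cannot give a two-sided p below 0.333, so none was run on the shares.

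miR-192-5p was then set beside miR-194-5p, summed over both of its entries. miR-194-5p took 48.97% and 48.98% of their joint reads in the Huh-7 libraries and 39.6% (38.7 to 40.4) and 42.4% (41.3 to 43.4) in those of A-549. It took 49.1% (42.2 to 56.0) and 44.4% (38.4 to 50.6) in ES-2 and 41.7% (34.8 to 48.8) and 49.2% (42.7 to 55.7) in MV-3. The Huh-7 shares differed by less than their counting error and lay above those of A-549. The shares of ES-2 and MV-3 ran from 41.7% to 49.2%. The intervals of the A-549 libraries did not overlap each other, so counting error alone understates the spread. Counts of miRNAs differed between libraries of a line beyond counting error, with chi-square per degree of freedom from 8.53 (ES-2) to 15.6 (A-549). With the chromosome 11 entry of miR-194-5p alone, the share was 44.3% (43.8 to 44.8) and 44.5% (43.9 to 45.1) in Huh-7 and 34.96% (34.1 to 35.8) and 37.96% (36.9 to 39.0) in A-549, so both Huh-7 libraries again lay above both of A-549. In ES-2 and MV-3 it ran from 36.7% to 47.3%.

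**Figure D3:**
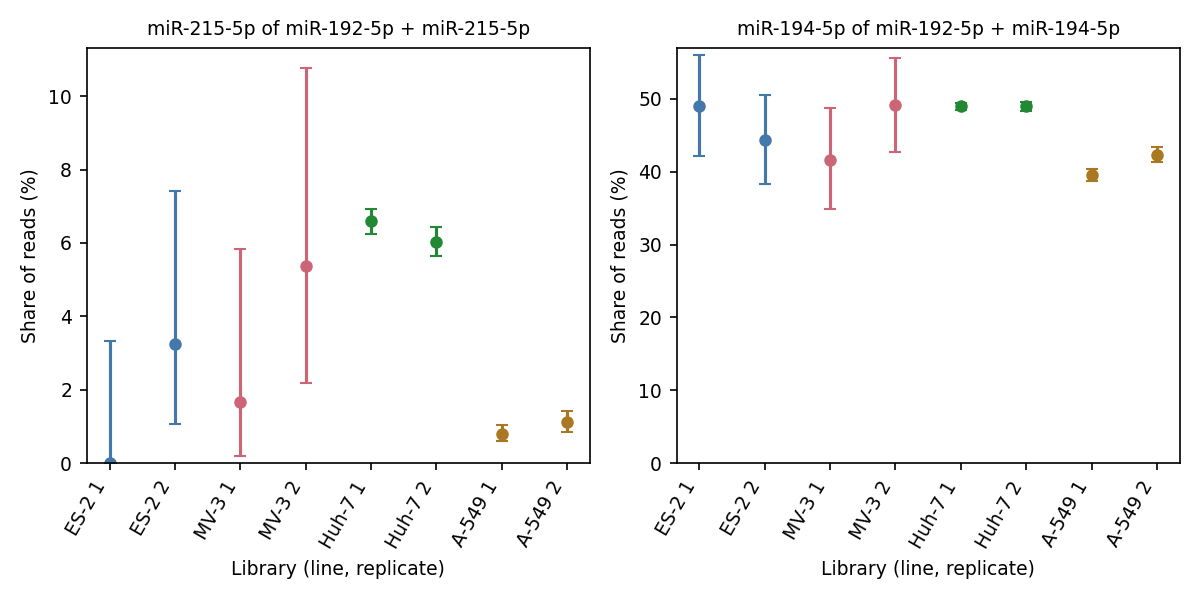
Left, percent of miR-192-5p and miR-215-5p reads that were miR-215-5p, and right, percent of miR-192-5p and miR-194-5p reads that were miR-194-5p, for each library with 95% exact binomial intervals. Shares of miR-215-5p are near 6% in Huh-7 and near 1% in A-549, and ES-2 and MV-3 have wide intervals because they hold few reads.

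The chromosome 1 and chromosome 11 entries of miR-194-5p were kept apart to ask how its reads were divided between MIR194-1 and MIR194-2. The chromosome 1 entry had 882 and 738 normalised CPM in the Huh-7 libraries and the chromosome 11 entry 4285 and 3751. For A-549 the values were 555 and 535 on chromosome 1 and 2539 and 2666 on chromosome 11. In ES-2 they were 4.86 and 13.4 against 68.0 and 47.8, and in MV-3 11.8 and 13.2 against 51.1 and 52.1. Each library held more miR-194-5p reads on chromosome 11. The chromosome 1 share was 17.1% (95% exact binomial interval 16.5 to 17.6) and 16.4% (15.8 to 17.1) in Huh-7, and 17.9% (16.9 to 19.03) and 16.7% (15.6 to 17.9) in A-549. It was 18.8% and 20.2% in MV-3, and 6.67% (2.72 to 13.3) and 21.8% (14.8 to 30.4) in ES-2. Apart from ES-2 replicate 1, with 7 of 105 reads on chromosome 1, the shares lay between 16.4% and 21.8%.

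The division of miR-194-5p did not follow miR-215-5p. Huh-7 and A-549 differed 7.79-fold in mean miR-215-5p, which is encoded beside MIR194-1, whereas their mean chromosome 1 shares of miR-194-5p were 16.8% ± 0.452 and 17.3% ± 0.872 (SD, n = 2). Both hairpins encode an identical mature sequence, so a read that ends within it aligns equally to both copies, and only a longer read can differ. The flanks are shown for this reason, with the mature sequence in lower case and 4 flanking bases on each side in capitals.
MIR194-1: CAAGuguaacagcaacuccauguggaCUGU
MIR194-2: CCCCuguaacagcaacuccauguggaAGUG
The windows are chr1:220118202-220118231 and chr11:64891400-64891429, both on the minus strand. Directly 3′ of the miRNA, at position 23 from its 5′ end, the substitution from MIR194-1 to MIR194-2 is C23A. A read carrying an A added after the miRNA, which is not encoded at MIR194-1, would match MIR194-2. How reads with several equal alignments were treated was not stated, the part of added bases was not tested, and locus of origin and alignment cannot be told apart in these entries.

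The uneven division set miR-194-5p apart from most miRNAs encoded by a pair of hairpins. Besides miR-194-5p, 36 names had exactly 2 entries and at least 100 reads over the 8 libraries. In 28 of them the entry with fewer reads held at least 45% of the reads, and the median was 48.7%, with quartiles of 46.2% and 49.5%. For miR-194-5p it held 16.9%. A single name was divided more unevenly, miR-548x-3p, at 3.10%, and the next above miR-194-5p was miR-138-5p at 30.4% (both chosen after their values were seen). This is a description of the table, and it was not tested.

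**Figure D4:**
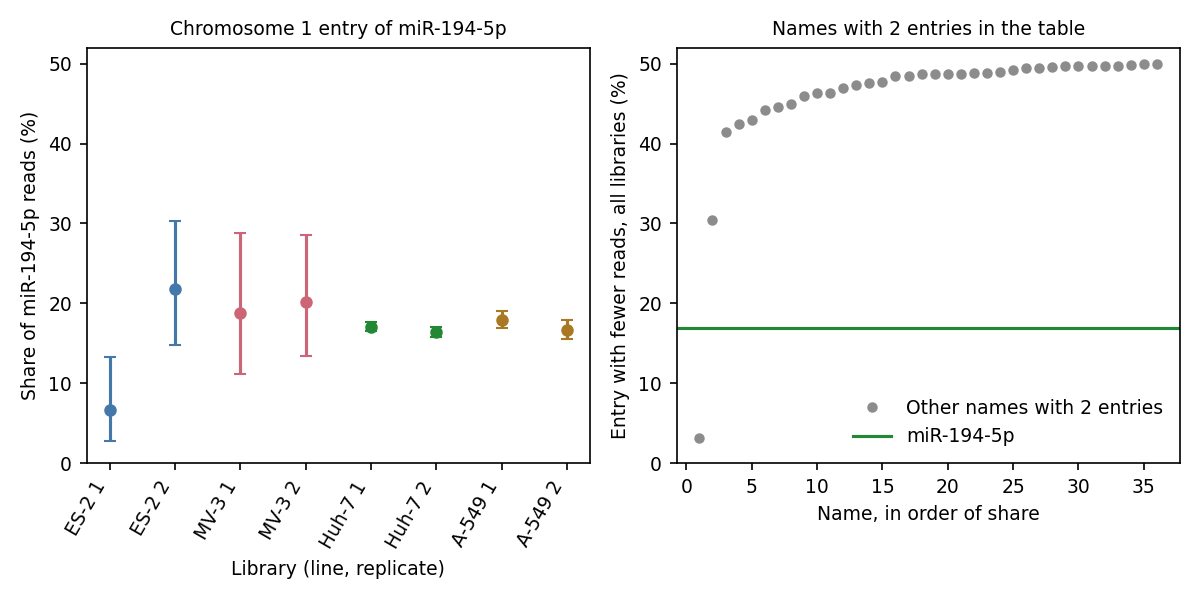
Left, percent of miR-194-5p reads listed on chromosome 1 in each library, with 95% exact binomial intervals. Right, percent of reads on the entry with fewer reads for 36 other names with 2 entries (points, in order) and for miR-194-5p (line at 16.9%), over all libraries, where most points lie between 45% and 50%.

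Arm use was described next, as the percent of a hairpin's reads that came from its 5p arm. For MIR192 it was 99.9% ± 0.0779 in Huh-7 and 99.97% ± 0.0173 in A-549 (SD, n = 2), with no 3p read in ES-2 or MV-3. For MIR194-2, from the chromosome 11 entry, it was 95.8% ± 0.806 in Huh-7 and 94.1% ± 0.00196 in A-549. Hence the 3p arm was a larger part of MIR194-2 reads than of MIR192 reads in all 8 libraries. In ES-2 the 5p share of MIR194-2 was 87.5% (95% exact binomial interval 79.9 to 93.0) and 78.8% (70.3 to 85.8), and in MV-3 92.0% (83.4 to 97.0) and 78.5% (70.1 to 85.5). These rest on 75 to 121 reads per library, and all 4 values lay below the 94.1% of both A-549 libraries, although the interval of MV-3 replicate 1 reached beyond it. For MIR215 the 5p share was 94.8% (93.5 to 95.9) and 96.4% (94.95 to 97.5) in Huh-7. In A-549 no 3p read was found beside 62 and 60 5p reads, which allows a 3p share of up to 4.84% and 5% (3 counts). By the exact intervals the 5p share could be as low as 94.2% and 94.04%, below both Huh-7 values. Single libraries of the 2 lines were thus not separable in arm use of MIR215 at this depth. ES-2 and MV-3 held 7 or fewer MIR215 reads per library and give no usable share.

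Other miRNAs encoded nearby were looked for. Within 10 kb of a member hairpin, RefSeq places 1 further miRNA, miR-6750, at 6924 bases from MIR194-2. Its 3p arm had 28 reads over the 8 libraries, at most 11 in any, and its 5p arm had 0. The start site of MIR194-2HG, the host of the chromosome 11 cluster, lies 2010 bases upstream of the MIR194-2 hairpin in RefSeq. The window from 250 bases before to 50 after that site was searched on both strands for binding sequences of hepatocyte nuclear factors, since the members of this cluster moved together. The HNF1 half-site GTTAAT occurred 1 time, on the reverse strand and 60 bases before the start. Of 35116 such windows searched for comparison, 6.88% hold it. The full HNF1 sequence, which is the half-site, any base and then the reverse complement of the half-site, was not found, and 0.0057% of windows hold it. The HNF4 sequence CAAAGTCCA was not found and is held by 0.384% of windows. The 30 bases around the half-site are shown with it in capitals, from chr11:64893492-64893521 on the minus strand.
MIR194-2HG: ggtgggataatcATTAACcaccaccagggg
A match is a description of letters and not of a bound site.

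Other miRNAs of liver, of epithelia and of the p53 response were set beside the members. In the liver-associated list (miR-122, miR-885, both arms each, both arms of miR-148a, and miR-101-3p), 6 of 7 tested were called higher in Huh-7 against ES-2 and 1, miR-101-3p, was called lower, beside 27.7% of all miRNAs called higher and 21.6% called lower. In A-549 against ES-2, 0 of 7 were called by limma, where 41.3% of all miRNAs were called, with a median log2 fold change of 0. At an unadjusted p under 0.05 there were 2, and edgeR called 1, miR-148a-3p. miR-122-5p had 5.33 ± 2.91 normalised CPM in A-549, where miR-192-5p had 4540 ± 260, and miR-885-5p, a liver miRNA, had 0 reads there. Between Huh-7 and A-549, 6 of the 7 were called higher in Huh-7, beside 23.7% of all miRNAs, and miR-101-3p was called higher in A-549. In this pair miR-192-5p was not called by normalised CPM.

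In the epithelial list (both arms of miR-200a, miR-200b, miR-200c and miR-141, with miR-429, miR-375, miR-203a-3p and miR-205-5p), 7 of 12 were tested. Of these, 5 were called higher in Huh-7 (beside 27.7% of all miRNAs) and 5 in A-549 (beside 23.7%) against ES-2, and 6 (beside 26.9%) and 6 (beside 24.1%) when set against MV-3. For A-549 against Huh-7, where 52.3% of all miRNAs were called, 0 of 7 were called by limma or edgeR and 0 had an unadjusted p under 0.05. miR-200b-3p, which represses the transcription factors ZEB1 and ZEB2, had 1853 ± 8.51 normalised CPM in Huh-7 and 1354 ± 69.6 in A-549, against 7.85 ± 1.66 in ES-2 and 17.0 ± 6.24 in MV-3. As for miR-192-5p, all Huh-7 and A-549 values were far above those of ES-2 and MV-3. limma called miR-200b-3p neither for MV-3 against ES-2 nor for A-549 against Huh-7. Unlike miR-192-5p, it had an unadjusted limma p under 0.05 for MV-3 against ES-2, as did miR-200c-3p. The summed list lay between 2546 and 2619 in Huh-7, 1735 and 1854 in A-549, 68.7 and 149 in ES-2 and 42.2 and 49.9 in MV-3.

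The p53-induced list, with the arms of miR-34a, miR-34b and miR-34c, miR-143-3p, miR-145-5p, miR-107 and miR-605-5p, had 8 of 10 tested. When set against ES-2, 6 were called higher in A-549 (beside 23.7% of all miRNAs) and 5 in MV-3 (beside 11.6%). In Huh-7 3 were called higher (beside 27.7%), a share near that of all miRNAs. Between Huh-7 and MV-3, 1 was called higher in Huh-7 (beside 26.9%) and 5 were called higher in MV-3 (beside 106 of 528 miRNAs). A-549 had 1 called higher than MV-3 (beside 24.1%) and 4 called higher than Huh-7 (beside 28.6%), with 0 called lower. miR-34a-5p, a direct p53 target, had 444 ± 12.1 normalised CPM in A-549, 163 ± 15.5 in Huh-7, 2.34 ± 2.58 in ES-2 and 0 reads in MV-3. miR-34c-5p and miR-143-3p had 180 ± 20.3 and 1037.5 ± 27.6 in MV-3, a line with little of either cluster, and 197 ± 59.6 and 2561 ± 78.6 in A-549. Markers of blood cells were both arms of miR-142, miR-223-3p, miR-451a and miR-486-5p. They summed to 519 to 560 normalised CPM in ES-2, 114 to 116 in MV-3, 779 to 789 in Huh-7 and 316 to 358 in A-549. These sums came from different members. miR-142-5p and miR-142-3p had means of 171 and 357 in ES-2 and 0 reads in the other lines. miR-486-5p had means of 783 in Huh-7, 335 in A-549, 115 in MV-3 and 11.1 in ES-2. Those of melanocytes and melanoma, with miR-204-5p and miR-508-3p added, did not exceed a sum of 4.91 in any library of ES-2, MV-3 or A-549 and summed to 34.2 to 44.2 in Huh-7. The part of either cell type in the results was not tested.

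The miRNAs most like the members over the libraries were found from the root mean square difference of log2(normalised CPM + 1), each centred on its mean over the 8 libraries, among 464 miRNAs with at least 10 in a line. The members miR-192-5p and miR-194-5p were nearer to each other, at 0.22, than to any other candidate. For miR-192-5p the nearest were miR-200b-5p (0.36), miR-200a-3p (0.50) and miR-1247-5p (0.54). For miR-194-5p they were miR-200b-5p (0.32), miR-200a-3p (0.59) and miR-429 (0.66). The miR-200 members among these come from 1 hairpin cluster elsewhere on chromosome 1. They had at most 5 reads in any ES-2 or MV-3 library. In Huh-7 miR-200b-5p had 44.2 ± 1.22 normalised CPM, miR-200a-3p 140 ± 28.7, and miR-429 220 and 165 in its libraries, which are levels far below those of miR-192-5p and miR-194-5p. The measure was computed with a pseudocount of 1 and with no other.

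miR-215-5p had no such close match by this measure. Its 0 and 5 reads in ES-2 and 2 and 7 in MV-3 carry wide counting error. This can widen its distances, and by how much was not tested. The nearest non-members were miR-126-5p (0.83), an endothelial miRNA from an intron of EGFL7, miR-1269b (1.069) and miR-200b-5p (1.10). Among the members, miR-194-5p stood at 1.065 and miR-192-5p at 1.20. miR-1269b had 384 and 349 normalised CPM in Huh-7 and 45.6 and 45.8 in A-549, values near those of miR-215-5p, with 0 reads in ES-2 and 11.8 and 6.04 in MV-3. With 4 lines behind 8 libraries, many miRNAs can share an order of lines, and these distances are descriptions.

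**Figure D5:**
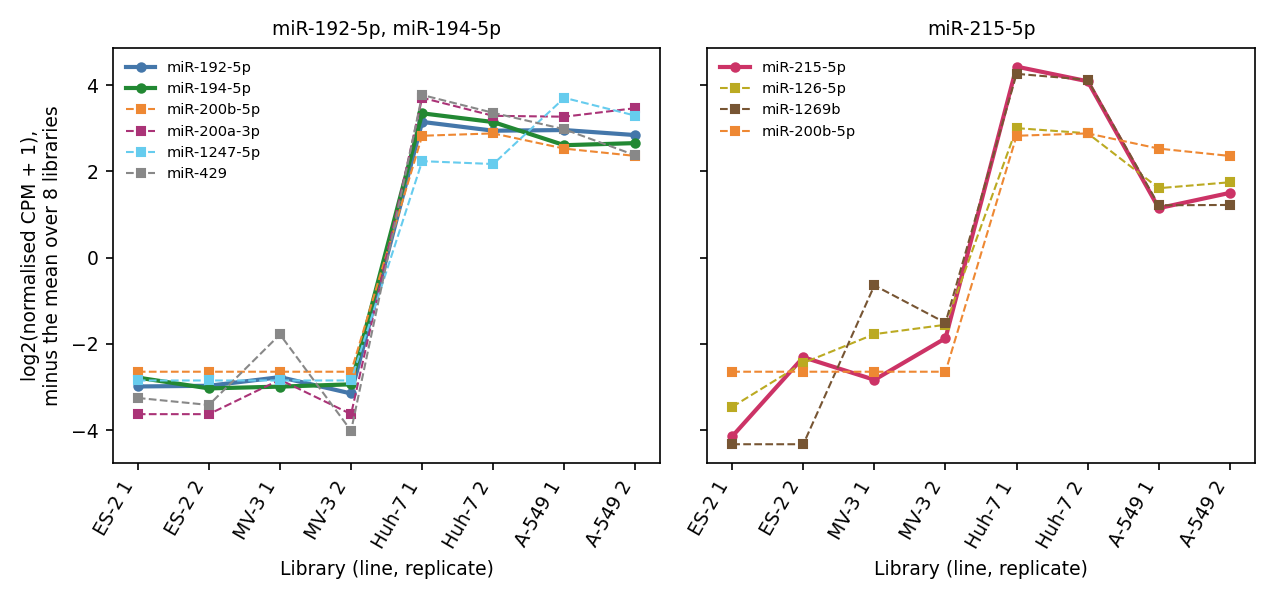
log2(normalised CPM + 1) minus its mean over the 8 libraries, for miR-192-5p and miR-194-5p (left) and miR-215-5p (right), each with the most alike miRNAs that are not members (dashed). Lines join libraries for reading only. The miR-192-5p and miR-194-5p profiles differ by a root mean square of 0.22, while miR-215-5p falls from Huh-7 to A-549 as miR-1269b does.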

How the data were processed

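The authors trimmed reads with Cutadapt 1.14, aligned them to GRCh38 with Bowtie2 2.3.2, counted miRBase mature miRNAs with featureCounts 1.5.3 and scaled them by TMM in edgeR 3.18.1. Strand and multi-mapping settings are not given in the sources used here. The deposited unit is a normalised signal (normalised CPM). Each value was a whole multiple of 1 constant per library (100% within a tolerance of 0.001), which gave back reads and library sizes. Entries of a name were summed.

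limma 3.58.1 in R 4.3.3, with a mean-dependent prior, was fitted to log2(normalised CPM + 1) of the 528 miRNAs kept by filterByExpr, with 1 term per line, 8 libraries and 4 residual degrees of freedom. Such fold changes understate those of low miRNAs. Calls used a Benjamini-Hochberg adjusted p below 0.01. edgeR 4.0.16 and DESeq2 1.42.0 on recovered reads were alternatives, as were pseudocounts of 0.1 and 10, library size only, RLE factors, other filters, a threshold of 0.05, a replicate block, the highest entry of a name and leaving out each library. On simulated reads with 200 of 528 miRNAs changed 4-fold in Huh-7 against ES-2, limma recovered 89.5% with 1 false call. The simulated reads had a common dispersion for all miRNAs and equal means in the lines other than Huh-7. In the data 68.2% of miRNAs were called among the 4 lines, so these rates do not describe the tests on these libraries. Members and lists were chosen with earlier results of these data known. Named miRNAs are the members, miRNAs within 10 kb or sharing a 5p seed, the 3 most alike per main 5p member and listed miRNAs of at least 100 normalised CPM in a line. Markers of each labelled origin are named too. A line whose libraries held no more than 3 reads each of a miRNA counted as lacking it. No source used here says whether the libraries of a line came from separate cultures, so p-values measure the spread between these libraries, which may be technical. Biopython 1.88 aligned the hairpins.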

Additional observations from a re-analysis of the deposited data

How the results depend on the processing

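Total numbers of called miRNAs stayed within 1.5 times the main number in all 133 combinations of alternative and comparison. By direction they did not, and with library size only those lower in A-549 than Huh-7 went from 125 to 264, those lower in A-549 than MV-3 from 82 to 161 and higher from 127 to 79, and those higher in Huh-7 than ES-2 from 146 to 246. For the 4 lines together they ran from 279 to 440, and leaving out single libraries gave 279 to 355. Of 27 member comparisons, 11 kept direction and call under all 19 alternatives, among them the 8 of miR-192-5p and miR-194-5p in Huh-7 or A-549 against ES-2 or MV-3. Directions that turned were in comparisons without a call. In MV-3 against ES-2, library size only turned miR-194-5p to 0.38, and RLE factors and DESeq2 turned miR-192-5p to -0.011 and -0.013. In A-549 against Huh-7, RLE factors and DESeq2 turned miR-192-5p to 0.085 and 0.090 and miR-194-3p to 0.14 and 0.13. Leaving out single libraries gave, in MV-3 against ES-2, -0.17 to 0.21 for miR-192-5p, -0.18 to 0.068 for miR-194-5p, -1.16 to 0.33 for miR-194-3p and -0.042 to 1.79 for miR-215-5p, and -0.20 to 0.023 for miR-194-3p in A-549 against Huh-7. For miR-215-3p the calls of Huh-7 were lost with DESeq2, at adjusted p = 0.0761 to 0.0887. The cause was not tested. The 5p share of MIR194-2 in A-549 was 95.1% with both 5p entries, an alternative chosen after seeing the data. Replicate numbers did not pair the libraries, with correlations of deviations between lines of -0.05 to 0.232. With the replicate block, 249 miRNAs were called for Huh-7 against ES-2 and no member call changed. The 3-read limit of detection was 0.845 to 2.45 normalised CPM.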
